A study of Mus musculus with 15 samples.

Results

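A set of 42 genes of endosomal sorting was followed in the tibialis anterior muscle of mice with and without myotubularin. The genes were taken by symbol from the gene count table and comprise 14 FYVE-domain proteins, 3 subunits of ESCRT-0, 6 Rab GTPases, 2 WIPI proteins, 14 sorting nexins and the 3 core subunits of retromer. The 42 genes correspond to 43 of the 30672 genes in the table, since *Hgs* is listed as 2 gene models. Of these, 41 genes passed the filter on low counts, out of 15533 genes tested in all.

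Phosphatidylinositol 3-phosphate (PI3P) is a lipid made on endosomal membranes by the class III PI3-kinase and removed by myotubularin, the phosphatase encoded by *Mtm1*. FYVE and PX domains are the protein modules best known for reading PI3P, so that many FYVE proteins and sorting nexins are drawn to endosomes by it. WIPI proteins read the same lipid at sites where autophagosomes form. ESCRT-0 collects ubiquitinated cargo on the early endosome, retromer and its sorting nexins send cargo back to the plasma membrane or the Golgi apparatus, and Rab5, Rab7, Rab4 and Rab11 mark early, late and recycling endosomes. Not every gene followed here encodes a PI3P-binding protein.

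All mice were males of the 129Pas strain aged 7 weeks. WT mice carried an intact *Mtm1* gene, whereas Mtm1-/y mice carried its knock-out (deleted part not given in the sources used here) and are used as a model of X-linked myotubular myopathy. Further mice of either genotype received tamoxifen (TAM), a drug that binds the oestrogen receptor (schedule and dose not given in the sources used here). Untreated mice numbered 4 for WT and 4 for Mtm1-/y, and treated mice 4 for WT + TAM and 3 for Mtm1-/y + TAM, with a library of muscle mRNA for each sample. The labels do not say in words that each library is a separate animal, so that p-values measure the spread between these samples, called mice here.

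Total counts ranged from 18042558 to 45823277 per library. *Mtm1* itself was at 15.3 ± 0.294 CPM (counts scaled to a common library size, SD, n = 4) in WT, 16.3 ± 1.88 (SD, n = 4) in WT + TAM, 3.36 ± 0.338 (SD, n = 4) in Mtm1-/y and 3.49 ± 0.381 (SD, n = 3) in Mtm1-/y + TAM, and the ranges of the genotypes did not overlap. The summed CPM of 10 muscle fibre markers was at least 171795 in every library. Measured over all tested genes, the library that lay farthest from the rest of its group was replicate 1 of Mtm1-/y, with a root mean square deviation of 0.716 log2 CPM against 0.449 to 0.471 for the other 3. In WT + TAM it was replicate 1, with 0.704 against 0.430 to 0.472, while the WT and Mtm1-/y + TAM libraries lay at 0.349 to 0.444. The summed markers of that WT + TAM library were 4723 CPM for fibroblasts against 898 to 1837 in the other 3, 395 CPM for endothelium against 629.7 to 698 and 195 CPM for Schwann cells against 68.6 to 127. In bulk muscle, fewer cells of a type and less RNA per cell cannot be told apart.

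Every gene of 5 families passed the filter, and in ESCRT-0 *Stam* and *Stam2* did. Per length, as RPKM (CPM divided by the length of the gene's merged exons in kilobases), the highest levels in WT were those of *Rab7*, the late endosome GTPase, at 60.6 ± 6.18 (SD, n = 4) and *Snx3*, a PX-only sorting nexin that works with retromer, at 58.5 ± 4.84 (SD, n = 4). These 2 levels did not differ beyond their spread, and both were above all others, the next being *Rab5c* at 17.2 ± 0.6001 (SD, n = 4). The lowest was *Snx33* at 1.03 ± 0.191 (SD, n = 4). *Hgs*, which encodes the ESCRT-0 subunit that binds PI3P, could not be measured. Its 2 gene models lie on the same strand of chromosome 11, at chr11:120467635-120483979 and chr11:120467635-120483984, and share 97.2% and 99.6% of their exon bases with each other. They held 6 and 1 counts over all 15 libraries together (treatment of shared reads not given in the sources used here).

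Replicates of the measured genes were close to each other. The median coefficient of variation within groups was 9.22% over the 41 genes. It was 12.4% over the 8853 tested genes between their lowest and highest mean log2 CPM (2.08 and 7.24). Levels within that range were not matched. The median standard error of a log2 fold change between Mtm1-/y and WT was 0.10 for the 41 genes and 0.18 for all tested genes.

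The first comparison asks which sorting genes differ in muscle that lacks myotubularin. In Mtm1-/y against WT, 8 of the 41 genes passed the test (19.5%), with 5 higher and 3 lower, where 30.4% of all tested genes passed. The higher genes were *Zfyve1*, *Zfyve21*, *Zfyve27*, *Rab5a* and *Snx4*, and the lower ones *Snx18*, *Zfyve26* and *Snx9*. The differences were small: the log2 fold changes ran from -0.60 to 0.84, and none of the 41 exceeded 1 in size, as 12.7% of all tested genes did. The median size of a log2 fold change was 0.10 over the 41 genes and 0.32 over all tested genes, and the signed medians were 0.05 and 0.00047. These values were not matched for level, and the median standard error was larger over all tested genes (0.18 against 0.10). For 30 of the 33 genes that did not pass, the 95% interval of the log2 fold change lay within 0.5 on either side of 0. Tests were edgeR quasi-likelihood tests, and a gene was called at a Benjamini-Hochberg adjusted p under 0.05 over all 15533 genes.

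**Figure D1:**
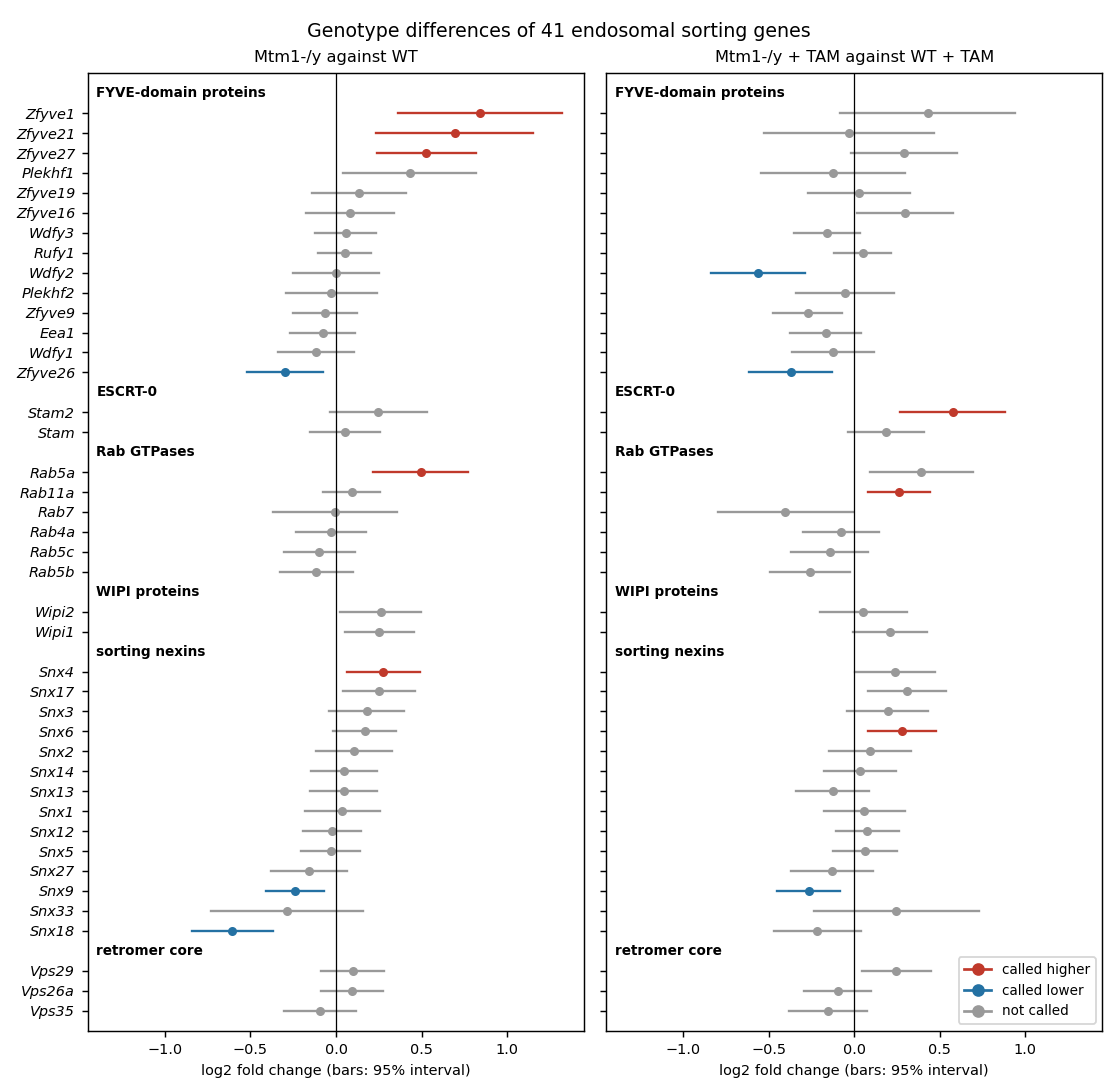
Log2 fold changes (x axis) of the 41 tested genes in Mtm1-/y against WT (left) and in Mtm1-/y + TAM against WT + TAM (right), grouped by family and ordered by the left panel. Points are the edgeR estimates and bars their 95% intervals, with called genes in red (higher) and blue (lower). Most intervals cross 0, and the called genes reach from -0.60 to 0.84 on the left and from -0.56 to 0.57 on the right.

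Among the FYVE-domain proteins, 3 of 14 were higher, 1 was lower and 10 did not pass. *Zfyve1* (chr12:83546558-83597222, GRCm38) encodes DFCP1, a protein of the endoplasmic reticulum sites from which autophagosomes form. Its CPM values were 25.8, 31.5, 30.1 and 34.6 in the 4 WT mice and 88.7, 40.5, 44.1 and 45.3 in the 4 Mtm1-/y mice. All mutants lay above all WT mice, and replicate 1 of Mtm1-/y lay far above the other 3. The fitted difference was 0.84 on the log2 scale (SE 0.22, adjusted p = 0.012, edgeR), and it was 0.51 with that replicate left out (adjusted p = 0.016, edgeR).

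*Zfyve27* (chr19:42163951-42194590) encodes protrudin, which moves late endosomes along microtubules during neurite outgrowth. It measured 24.5, 23.5, 23.1 and 24.97 CPM in WT and 48.1, 29.2, 29.9 and 31.1 CPM in Mtm1-/y. The groups did not overlap and the same mutant was again the highest. The log2 fold change of 0.53 (SE 0.14, adjusted p = 0.0091, edgeR) became 0.32 without it (adjusted p = 0.0091, edgeR). *Zfyve21*, whose product acts in the disassembly of focal adhesions, measured 4.82, 6.32, 6.99 and 5.72 CPM in WT and 14.02, 8.03, 8.14 and 8.20 CPM in Mtm1-/y. Here too the groups did not overlap and replicate 1 stood alone at the top. Its log2 fold change of 0.69 (SE 0.22, adjusted p = 0.024, edgeR) fell to 0.45 without that replicate and no longer passed (adjusted p = 0.081, edgeR). *Zfyve21* also failed to pass without WT replicate 1 or WT replicate 4.

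*Zfyve26* (chr12:79232346-79296304) encodes spastizin, a protein of lysosome reformation that is lost in a form of hereditary spastic paraplegia. Its CPM values of 30.3, 25.2, 20.8 and 26.7 in WT overlapped those of 22.7, 21.2, 20.5 and 19.5 in Mtm1-/y, and its log2 difference was -0.30 (SE 0.11, adjusted p = 0.043, edgeR). This call was lost in 12 of 24 alternative fits, 8 of them with a library left out (WT replicate 1, 2 or 4, Mtm1-/y replicate 2, 3 or 4, or Mtm1-/y + TAM replicate 2 or 3). *Eea1*, the tether of early endosome fusion and the best-known FYVE protein, had a log2 fold change of -0.08 with a 95% interval from -0.27 to 0.11. *Wdfy2*, a FYVE and WD-repeat protein of early endosomes, was at 0.00 with an interval from -0.25 to 0.25.

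**Figure D2:**
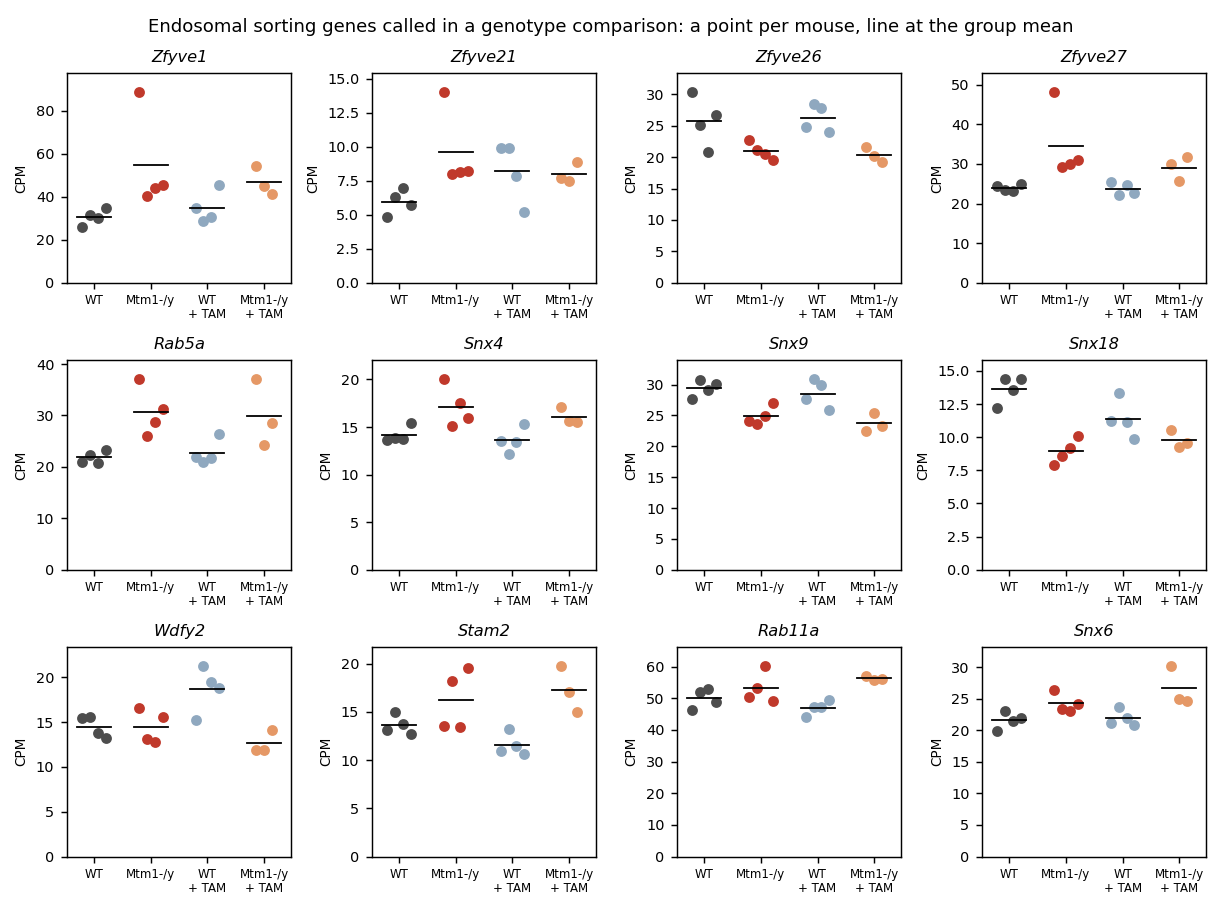
CPM (y axis, from 0) of the 12 genes called in a genotype comparison, with a point for each mouse in each of the 4 groups (x axis) and a line at the group mean. For *Zfyve1*, *Zfyve21* and *Zfyve27*, a single Mtm1-/y mouse lies at 88.7, 14.02 and 48.1 CPM, above the other mice of its group. *Snx18* lies at 12.2 to 14.4 CPM in WT and at 7.90 to 10.1 CPM in Mtm1-/y.

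*Rab5a* (chr17:53479234-53507680) was the gene called among the 6 Rab GTPases. It encodes a GTPase that organizes the early endosome and recruits the class III PI3-kinase. It measured 20.98, 22.4, 20.8 and 23.2 CPM in WT and 37.1, 26.0, 28.7 and 31.3 CPM in Mtm1-/y, and all mutants lay above all WT mice. The fitted difference was 0.49 (log2, SE 0.13, adjusted p = 0.010, edgeR), and 0.39 without replicate 1 of Mtm1-/y (adjusted p = 0.027, edgeR). Its paralogues *Rab5b* and *Rab5c* had log2 fold changes of -0.12 (95% interval -0.33 to 0.10) and -0.10 (95% interval -0.30 to 0.11) and did not pass. *Rab7* (-0.01, 95% interval -0.37 to 0.36) and *Rab4a* of the fast recycling route (-0.03, 95% interval -0.24 to 0.18) were, with the sorting nexin *Snx12* (-0.02, 95% interval -0.19 to 0.15), the genes nearest to 0 among those whose log2 CPM averaged 4 or more.

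*Rab5a* was the least abundant of the 3 *Rab5* genes in every group. Of their summed RPKM, it made up 12.3 ± 0.270% (SD, n = 4) in WT and 17.5 ± 1.73% (SD, n = 4) in Mtm1-/y. The WT mice reached 12.7% at most and the mutants 15.4% at least. With tamoxifen the shares were 12.8 ± 1.29% (SD, n = 4) in WT + TAM and 17.9 ± 3.00% (SD, n = 3) in Mtm1-/y + TAM, at most 14.4% against at least 15.1%. These shares follow from the choice of *Rab5a* by its call and were not tested.

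**Figure D3:**
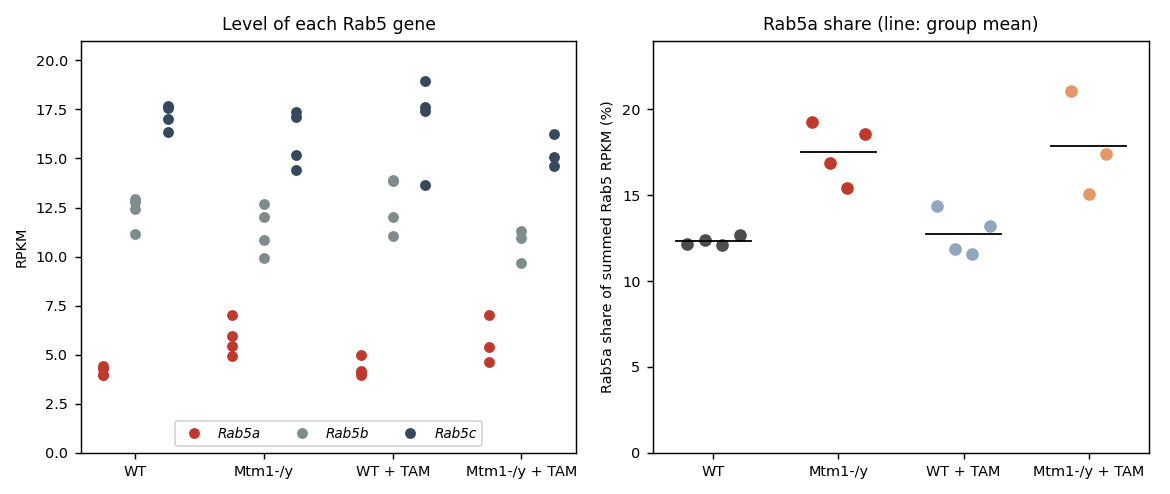
Left, RPKM (y axis) of *Rab5a*, *Rab5b* and *Rab5c* in each mouse of the 4 groups (x axis). Right, the share of *Rab5a* in their summed RPKM in percent, with lines at the group means, which are 12.3% in WT, 17.5% in Mtm1-/y, 12.8% in WT + TAM and 17.9% in Mtm1-/y + TAM.

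Of the 14 sorting nexins, 1 was higher, 2 were lower and 11 did not pass. *Snx18* (chr13:113592179-113618564) and *Snx9* (chr17:5841329-5931954) are paralogues with SH3, PX and BAR domains that bend membranes in endocytosis, and *Snx9* binds dynamin. *Snx18* measured 12.2, 14.4, 13.5 and 14.4 CPM in WT and 7.90, 8.59, 9.22 and 10.1 CPM in Mtm1-/y. The groups were clearly apart and no mouse stood out. Its log2 fold change of -0.60 (SE 0.11, adjusted p = 0.00095, edgeR) had the smallest p of the 41 genes. *Snx9* measured 27.7, 30.7, 29.2 and 30.1 CPM in WT and 24.2, 23.6, 24.9 and 27.1 CPM in Mtm1-/y, without overlap. Its log2 difference was -0.24 (SE 0.08, adjusted p = 0.033, edgeR), and it missed the threshold without replicate 1 of Mtm1-/y (-0.22, adjusted p = 0.054, edgeR), or without WT replicate 2, 3 or 4 or Mtm1-/y replicate 2 or 3. *Snx33*, the third paralogue, had a log2 fold change of -0.29 and a wide 95% interval from -0.73 to 0.16.

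*Snx4*, which returns the transferrin receptor from endosomes, measured 13.6, 13.9, 13.8 and 15.4 CPM in WT and 20.03, 15.1, 17.5 and 15.9 CPM in Mtm1-/y, so that the groups overlapped. Its log2 difference was 0.28 (SE 0.10, adjusted p = 0.049, edgeR) and fell to 0.19 without replicate 1 of Mtm1-/y (adjusted p = 0.13, edgeR). The call of *Snx4* was lost in 10 of the 15 fits that left out a library, all but those without WT replicate 4, WT + TAM replicate 2 or 4, or Mtm1-/y replicate 2 or 4. The other 11 sorting nexins had log2 fold changes between -0.29 and 0.25. Of these, *Snx17* (0.25, adjusted p = 0.065, edgeR) passed with DESeq2 (adjusted p = 0.043). Without replicate 1 of Mtm1-/y, *Snx17* (0.32, adjusted p = 0.020, edgeR) and *Snx3* (0.27, adjusted p = 0.034, edgeR) passed.

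In the remaining families edgeR called no gene. The retromer core genes *Vps26a*, *Vps29* and *Vps35* had log2 fold changes between -0.09 and 0.10, and all 3 intervals lay within 0.5 of 0. *Wipi1* and *Wipi2* had log2 fold changes of 0.25 and 0.26 with adjusted p = 0.055 and adjusted p = 0.086 (edgeR). *Wipi1* passed with DESeq2 (adjusted p = 0.028), as it did in edgeR with RLE factors (adjusted p = 0.044) and with a minimum count of 50 (adjusted p = 0.044). *Stam* and *Stam2*, the ESCRT-0 partners of *Hgs*, had log2 fold changes of 0.05 and 0.25 and did not pass. In 7 of the 41 genes (17.1%) all mutants lay on the same side of all WT mice, 5 above and 2 below, where 30.5% of all tested genes had groups that did not overlap.

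Of the 8 calls, 4 (*Zfyve1*, *Zfyve27*, *Rab5a* and *Snx18*) were kept in all 24 alternative fits at the same threshold, and their promoters are shown for that reason. The RefSeq promoter table (GRCm38.p6) held 34 of the 42 genes, each as the 250 bases before its RefSeq transcription start, which for *Zfyve27* lies inside the gene's span in the count annotation. They were searched for CACGTG, the core of the E-box bound by TFEB and MYC family factors, and for CAGCTG, an E-box form bound by myogenic factors. Each reads the same on the opposite strand and neither overlaps the other, and matches stand in capitals.

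Zfyve1, chr12:83597223-83597472, minus strand: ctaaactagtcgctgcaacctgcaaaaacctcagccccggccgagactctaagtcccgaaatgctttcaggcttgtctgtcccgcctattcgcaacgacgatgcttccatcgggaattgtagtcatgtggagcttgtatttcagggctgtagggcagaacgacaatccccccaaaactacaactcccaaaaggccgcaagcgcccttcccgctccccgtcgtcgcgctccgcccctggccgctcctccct
Zfyve27, chr19:42170317-42170566, plus strand: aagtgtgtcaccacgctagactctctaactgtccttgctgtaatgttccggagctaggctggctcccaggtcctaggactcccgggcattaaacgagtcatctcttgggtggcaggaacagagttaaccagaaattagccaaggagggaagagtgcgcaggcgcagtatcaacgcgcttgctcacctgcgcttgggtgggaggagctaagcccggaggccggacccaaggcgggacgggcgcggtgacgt
Rab5a, chr17:53478984-53479233, plus strand: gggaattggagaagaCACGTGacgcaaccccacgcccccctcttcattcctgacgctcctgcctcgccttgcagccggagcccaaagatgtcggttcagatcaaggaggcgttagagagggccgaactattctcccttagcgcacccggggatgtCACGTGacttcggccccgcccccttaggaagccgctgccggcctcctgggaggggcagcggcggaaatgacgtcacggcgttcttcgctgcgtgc
Snx18, chr13:113618565-113618814, minus strand: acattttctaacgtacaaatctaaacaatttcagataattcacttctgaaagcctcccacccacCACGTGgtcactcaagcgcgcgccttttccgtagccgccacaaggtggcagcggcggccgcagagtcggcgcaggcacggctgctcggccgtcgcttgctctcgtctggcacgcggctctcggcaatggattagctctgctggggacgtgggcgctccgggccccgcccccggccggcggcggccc

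*Rab5a* held 2 matches to CACGTG, beginning 235 and 95 bases before the start, and *Snx18* held 1, beginning 186 bases before it. The windows of *Zfyve1* and *Zfyve27* held neither sequence. CACGTG occurred in 5 of the 34 promoters (14.7%), those of *Rab5a*, *Snx18*, *Zfyve26*, *Snx5* and *Vps26a*, and in 6.02% of all 32851 promoters of the table. CAGCTG occurred in 2 of 34 (5.88%), those of *Stam2* and *Zfyve16*, and in 13.0% of all promoters. The median GC content was 63.6% in the 34 windows and 52.4% in all. A match to these letters is a description of the sequence only.

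The second comparison asks the same question in tamoxifen-treated mice, which share no animal with the first. In Mtm1-/y + TAM against WT + TAM, 6 of the 41 genes passed (14.6%), 3 higher and 3 lower, where 20.1% of all tested genes passed. *Stam2*, *Snx6* and *Rab11a* were higher and *Wdfy2*, *Zfyve26* and *Snx9* were lower. With replicate 1 of Mtm1-/y + TAM left out, which leaves 2 mice in that group, 1 of the 6 calls remained, that of *Wdfy2*. Without replicate 3 of WT + TAM 2 genes were called, and without WT replicate 2, or replicate 2 or 3 of Mtm1-/y + TAM, 3 were. Replicate 1 of Mtm1-/y is not in the comparison but enters the shared estimate of spread. Without it 12 genes were called, which added *Zfyve1*, *Zfyve9*, *Zfyve27*, *Rab5a*, *Snx17* and *Vps29*. The calls over all tested genes moved too, from 3121 of 15533 in the main fit. Without replicate 1, 2 or 3 of Mtm1-/y + TAM they were 2119 of 15935, 1656 of 15681 and 2121 of 15700. They were 2843 of 15563 without WT replicate 2 and 2246 of 15333 without replicate 3 of WT + TAM. Without replicate 1 of Mtm1-/y they were 4097 of 15286. Groups did not overlap in 13 genes (31.7%), 8 higher and 5 lower, against 31.6% of all tested genes.

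*Wdfy2* measured 15.3, 21.3, 19.5 and 18.8 CPM in WT + TAM and 11.9, 11.9 and 14.1 CPM in Mtm1-/y + TAM, all below the WT + TAM range. The fitted difference was -0.56 (log2, SE 0.13, adjusted p = 0.0071, edgeR), and this call was kept in all 24 alternative fits. *Stam2* measured 10.95, 13.2, 11.5 and 10.6 CPM in WT + TAM and 19.8, 17.02 and 14.98 CPM in Mtm1-/y + TAM, all above. Its log2 difference was 0.57 (SE 0.14, adjusted p = 0.011, edgeR), and 0.47 without replicate 1 of Mtm1-/y + TAM (adjusted p = 0.062, edgeR). In untreated mice *Stam2* overlapped between the genotypes, at 13.1, 15.02, 13.7 and 12.8 CPM in WT and 13.5, 18.2, 13.4 and 19.6 CPM in Mtm1-/y.

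*Rab11a*, the GTPase of the recycling endosome, measured 44.1, 47.4, 47.1 and 49.3 CPM in WT + TAM and 56.9, 55.9 and 56.2 CPM in Mtm1-/y + TAM. The groups did not overlap, with a difference of 0.26 (log2, SE 0.08, adjusted p = 0.040, edgeR). *Snx6*, a BAR-domain sorting nexin that works with retromer, measured 21.1, 23.7, 22.0 and 20.7 CPM in WT + TAM and 30.2, 24.97 and 24.7 CPM in Mtm1-/y + TAM, a difference of 0.28 (log2, SE 0.09, adjusted p = 0.045, edgeR). All treated mutants lay above all treated WT mice in these 2 genes. Each call was kept in 6 of the 15 fits that left out a library. Without replicate 1 of WT + TAM the difference was 0.23 for *Rab11a* (adjusted p = 0.078, edgeR) and 0.26 for *Snx6* (adjusted p = 0.077, edgeR). Without replicate 1 of Mtm1-/y + TAM, *Snx6* fell to 0.18 (adjusted p = 0.23, edgeR). *Rab11a* was then at 0.26 (adjusted p = 0.11, edgeR).

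*Zfyve26* and *Snx9* were called lower in this comparison as well as in untreated mice. *Zfyve26* measured 24.8, 28.4, 27.8 and 24.02 CPM in WT + TAM and 21.6, 20.1 and 19.2 CPM in Mtm1-/y + TAM (log2 fold change -0.37, SE 0.11, adjusted p = 0.033, edgeR). *Snx9* measured 27.7, 30.9, 29.9 and 25.8 CPM in WT + TAM and 22.5, 25.3 and 23.3 CPM in Mtm1-/y + TAM (log2 fold change -0.27, SE 0.09, adjusted p = 0.041, edgeR). Neither gene's groups overlapped under tamoxifen. With a library left out, *Zfyve26* was kept in 10 of 15 fits and *Snx9* in 6 of 15.

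Of the 8 genes called in untreated mice, 7 had the same sign under tamoxifen, 4 had an unadjusted p under 0.05 and 2 were called. The exception in sign was *Zfyve21*, at 9.93, 9.94, 7.87 and 5.22 CPM in WT + TAM and 7.74, 7.49 and 8.89 CPM in Mtm1-/y + TAM (log2 fold change -0.03, 95% interval -0.52 to 0.46). *Rab5a* had a log2 fold change of 0.39 (adjusted p = 0.060, edgeR), from 21.9, 20.95, 21.7 and 26.3 CPM in WT + TAM and 37.0, 24.3 and 28.4 CPM in Mtm1-/y + TAM. *Zfyve1* was at 0.43 (adjusted p = 0.23), *Zfyve27* at 0.29 (adjusted p = 0.18), *Snx4* at 0.24 (adjusted p = 0.14) and *Snx18* at -0.22 (adjusted p = 0.22), all by edgeR. The treated WT mice reached 45.4 CPM for *Zfyve1*, where the treated mutants measured 54.4, 45.2 and 41.5 CPM. For *Snx18* they measured 11.2, 13.3, 11.2 and 9.88 CPM, which overlapped the 10.55, 9.29 and 9.59 CPM of the treated mutants. Over the 41 genes, 32 had the same sign in both comparisons (78.0%), beside 73.4% of all tested genes. The log2 fold changes had a Pearson r of 0.55 and a Spearman rho of 0.66 across these genes, which are not independent replicates, against 0.72 and 0.62 across all tested genes.

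**Figure D4:**
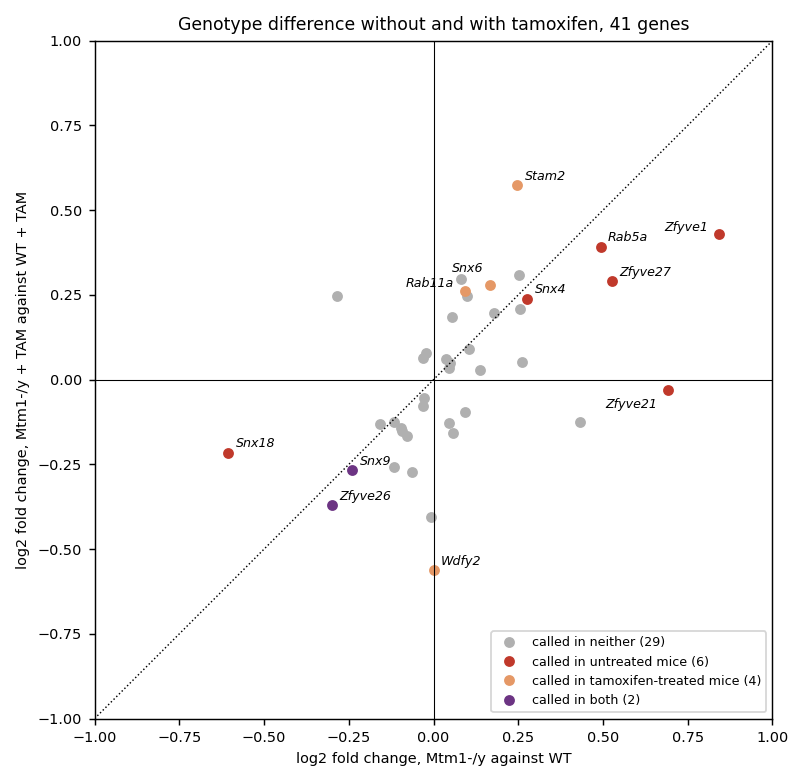
Log2 fold change in untreated mice (x axis) against that in tamoxifen-treated mice (y axis) for the 41 genes, coloured by where they were called, with a dotted line of equal values. Of the points, 32 lie in the quadrants of equal sign, *Wdfy2* lies at 0.00 on the x axis and -0.56 on the y axis, and *Zfyve21* at 0.69 and -0.03.

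When the genotype difference was averaged over untreated and treated mice in the same fit, a contrast added after the values were seen, 15 of the 41 genes passed (36.6%), 10 higher and 5 lower, where 39.5% of all tested genes did. These 15 held 11 of the 12 genes called in either comparison, the exception being *Zfyve21*. The 4 others were *Snx17*, a sorting nexin that recycles integrins and lipoprotein receptors, at 0.28 (SE 0.07, adjusted p = 0.0064, edgeR), *Wipi1* at 0.23 (SE 0.07, adjusted p = 0.016, edgeR), *Vps29* at 0.17 (SE 0.06, adjusted p = 0.045, edgeR) and *Zfyve9* at -0.17 (SE 0.06, adjusted p = 0.048, edgeR). The *Vps29* and *Zfyve9* calls were lost in 16 and 15 of 23 alternative fits. *Snx17* shares 11.9% of its exon bases with genes on the opposite strand, *Zfyve9* 10.9%, *Vps29* 5.53%, *Rab5a* 4.19% and *Wdfy2* 3.73%. With genes on the same strand, *Stam2* shares 4.88%, *Rab11a* 3.58% and *Wdfy2* 1.49% (strand use in counting not given in the sources used here).

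A further question is whether tamoxifen moved these genes within a genotype. None of the 41 was called in WT + TAM against WT, where 0.309% of all tested genes were. An unadjusted p under 0.05 was found in 5 of the 41 (12.2%), beside 11.3% of all tested genes. DESeq2 and limma-voom called none of the 41 either. None was called in Mtm1-/y + TAM against Mtm1-/y, where 0.0129% of all tested genes were. There 2 of the 41 had an unadjusted p under 0.05 (4.88%), beside 5.54% of all tested genes. Both comparisons share mice with the genotype comparisons above. The 95% interval lay within 0.5 of 0 for 34 genes in WT and for 35 in Mtm1-/y. The interaction of genotype with tamoxifen called none of the 41 genes and 0% of all tested genes. For it 3 of the 41 had an unadjusted p under 0.05 (7.32%), beside 10.6% of all tested genes. DESeq2 and limma-voom also called none of the 41 for the interaction.

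*Wdfy2* had the smallest p in WT + TAM against WT and in the interaction. It measured 15.5, 15.5, 13.8 and 13.2 CPM in untreated WT, against 15.3, 21.3, 19.5 and 18.8 CPM in WT + TAM, with 1 treated mouse inside the untreated range. The fitted difference was 0.37 (log2, SE 0.12, adjusted p = 0.24, edgeR). In Mtm1-/y it was -0.20 (SE 0.13, adjusted p = 0.87, edgeR), from 16.5, 13.1, 12.7 and 15.6 CPM untreated. The interaction was -0.56 (SE 0.17, adjusted p = 0.36, edgeR). With replicate 1 of Mtm1-/y and replicate 1 of WT + TAM left out together, *Wdfy2* was called in WT + TAM against WT (0.45, adjusted p = 0.030, edgeR). That WT + TAM library, at 15.3 CPM, was the treated mouse inside the untreated range. The same fit called 347 of all tested genes in this comparison, against 48 in the main fit.

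*Wdfy3*, which encodes Alfy, an adaptor for the autophagy of protein aggregates, had the smallest p in Mtm1-/y + TAM against Mtm1-/y. It measured 33.7, 36.3, 35.7 and 33.7 CPM in Mtm1-/y and 29.4, 32.0 and 28.0 CPM in Mtm1-/y + TAM (log2 fold change -0.23, SE 0.09, adjusted p = 0.85, edgeR). *Wdfy3* and *Zfyve9* were the 2 genes (4.88%) in which the groups did not overlap in this comparison, both lower with tamoxifen, where 5.71% of all tested genes had groups apart. In WT + TAM against WT no gene of the 41 had groups apart, where 8.08% of all tested genes did.

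Partner genes of the same pathways, taken from lists of 97 genes, were set beside them. Of 96 tested, 27 passed in Mtm1-/y against WT (28.1%), 21 higher and 6 lower, and 26 passed in Mtm1-/y + TAM against WT + TAM (27.1%), 20 higher and 6 lower, beside the 30.4% and 20.1% of all tested genes. None passed in either tamoxifen comparison. The list with the most calls was that of ESCRT-I, ESCRT-II, ESCRT-III and Vps4, the machinery that acts after ESCRT-0 to bud vesicles into the endosome. Of its 25 genes 12 were higher and 2 lower in untreated mice (56%), with a median log2 fold change of 0.26, and 10 were higher and 1 lower under tamoxifen (44%), with a median of 0.24. Without WT replicate 1, 9 of the 25 passed in untreated mice (count over all tested genes not given here). Without replicate 2 of Mtm1-/y + TAM 7 of the 25 passed in treated mice. That fit called 1656 of 15681 tested genes in the treated comparison, against 3121 of 15533 in the main fit.

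The largest called difference in each list was that of *Vps37c*, an ESCRT-I subunit, at 33.0, 37.7, 39.0 and 33.1 CPM in WT and 47.5, 64.1, 62.5 and 74.6 CPM in Mtm1-/y (log2 fold change 0.80, SE 0.14, adjusted p = 0.00082, edgeR). Among the other FYVE, PX and PROPPIN proteins it was *Fgd4*, an exchange factor for Cdc42, at 17.6, 16.6, 13.1 and 15.05 CPM in WT and 8.97, 7.46, 10.6 and 6.67 CPM in Mtm1-/y (-0.89, SE 0.15, adjusted p = 0.00067, edgeR). Both genes had groups that did not overlap. The others were *Uvrag* of the class III PI3-kinase complex at 0.50 (adjusted p = 0.033), *Vps11* of the CORVET and HOPS tethers at 0.49 (adjusted p = 0.010), *Ehd4* among the retromer partners at 0.59 (adjusted p = 0.013) and the Rab5 effector *Appl1* at -0.30 (adjusted p = 0.020), all by edgeR. *Uvrag* and *Vps11* were highest in replicate 1 of Mtm1-/y, at 24.7 and 74.6 CPM, against 14.1 to 15.9 and 44.9 to 47.0 CPM in the other 3 mutants. Without that replicate the log2 difference of *Uvrag* was 0.28 and did not pass (adjusted p = 0.11, edgeR), and that of *Vps11* was 0.28 (adjusted p = 0.0039, edgeR). *Ehd4* was the opposite case, at 61.5 CPM in replicate 1, inside the WT range of 60.7 to 65.2 CPM, and at 104.8 to 106.3 CPM in the other 3 mutants. Its log2 difference was 0.75 without replicate 1 (adjusted p = 0.00042, edgeR). *Uvrag* also failed to pass without WT replicate 1, 2 or 4, and *Appl1* without WT replicate 1 or Mtm1-/y replicate 2.

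Markers of other cells were read beside the 30.4% and 20.1% of all tested genes called in the untreated and the treated comparison. Of 7 endothelial markers 6 were lower in both genotype comparisons, with summed levels of 561 to 704 CPM in WT, 341 to 402 in Mtm1-/y, 395 to 698 in WT + TAM and 308 to 398 in Mtm1-/y + TAM. Of 5 satellite cell markers 3 were lower in untreated and 2 in treated mice, at 39.8 to 44.6 CPM in WT, 29.0 to 48.4 in Mtm1-/y, 43.4 to 47.4 in WT + TAM and 33.3 to 37.2 in Mtm1-/y + TAM. Of 10 macrophage markers 2 were higher in untreated mice, at 30.4 to 55.1 CPM in WT and 37.3 to 94.8 in Mtm1-/y, and none in treated mice, where the sums did not overlap at 44.3 to 68.2 CPM in WT + TAM and 69.1 to 121.2 in Mtm1-/y + TAM. Fibre markers were lower in 2 of 10 in both comparisons, Schwann cell markers higher in 2 of 6 and fibroblast markers in 1 of 7 in untreated mice, and no adipocyte or blood marker was called. The fibre sums overlapped in untreated mice, at 209391 to 276278 CPM in WT and 171795 to 221780 in Mtm1-/y. In treated mice they did not, at 208833 to 240634 CPM in WT + TAM and 183049 to 188724 in Mtm1-/y + TAM. The blood sums did not overlap in untreated mice, at 69.1 to 96.2 CPM in WT and 14.9 to 66.5 in Mtm1-/y. In treated mice the blood sums overlapped, at 80.6 to 198.1 CPM in WT + TAM and 46.7 to 114.9 in Mtm1-/y + TAM. No marker was at 0 in all libraries, and 1 adipocyte and 1 satellite cell marker were at 0 in some. The part of these cells in the differences of the sorting genes was not tested.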

How the data were processed

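For 15 libraries of tibialis anterior mRNA, the authors deposited whole-number read counts for each Ensembl gene, without normalization. The submitters' processing notes list HTSeq 0.6.1p1, STAR 2.5.3a, Bowtie2 2.2.8 and cutadapt 1.10, and GRCm38 as well as mm10, with no role for any (strand setting, annotation release and treatment of shared reads not given in the sources used here). Symbols, coordinates and exon lengths were taken from GENCODE M21 (GRCm38), in which 0 identifiers were unmatched, and promoters from RefSeq (GRCm38.p6).

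The tests were run in edgeR 4.0.16 (R 4.3.3). A filter on low counts (filterByExpr, minimum count 10) chose the genes tested, libraries were scaled by TMM factors, and a quasi-likelihood model with 4 group means and robust dispersions was fitted to all 15 libraries. P-values were adjusted over all tested genes (Benjamini-Hochberg). Log2 fold changes come from this fit, and CPM use TMM-adjusted library sizes. Groups came from the labels alone. A count of 0 allows up to 3 counts, which is at most 0.159 CPM here and covers counting error only. The pipeline was tested on simulated data.

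The 42 genes, the partner and marker lists and the rule for named genes were chosen with earlier results of these data known, so that no list is independent evidence and no set test was run. By that rule every gene called in a genotype comparison is named, then the smallest p of each tamoxifen comparison and of the interaction, the 3 genes nearest 0 in Mtm1-/y against WT among those whose log2 CPM averaged 4 or more and, per partner list, the called gene that moved most. *Eea1*, *Rab5b*, *Rab5c*, *Snx33* and other genes named beside these were chosen after their values were seen. Alternatives were RLE and upper-quartile factors, no filter, a minimum count of 50, DESeq2 1.42.0, limma-voom (limma 3.58.1), a replicate block, only the 2 groups compared, each library left out, and 2 libraries left out together. Replicate numbers were not used as pairs in the main fit. Of 21 same-numbered pairs across groups, 6 had correlated deviations over 0.1 (range -0.11 to 0.31). Pairs with different numbers were not set beside them, so that this check cannot decide whether the numbers pair the mice. Within a group no library was a duplicate of another, the lowest chi-square per degree of freedom being 11.3. Libraries of different groups were not compared in this way.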

Additional observations from a re-analysis of the deposited data

Results flagged for a closer look

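Within each group of 4, the gap of the highest or lowest mouse to its neighbour was compared with the whole range, for the 16 sorting genes and 6 partner genes that the rule for named genes chose. Of 66 such checks, 9 passed the critical value of 0.829, and about 1 in 20 passes by chance.

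In replicate 1 of Mtm1-/y, *Zfyve1* was at 88.7 CPM (40.5 to 45.3 in the other 3 mice), *Zfyve21* at 14.02 CPM (8.03 to 8.20) and *Zfyve27* at 48.1 CPM (29.2 to 31.1). Among the partner genes, *Uvrag* was at 24.7 CPM (14.1 to 15.9) and *Vps11* at 74.6 CPM (44.9 to 47.0) in it, while *Ehd4* was low at 61.5 CPM (104.8 to 106.3). The same library lay farthest from its group over all genes, at a root mean square deviation of 0.716 log2 CPM. Its summed fibroblast markers were 368 CPM against 1009 to 1975, and its summed blood markers 14.9 CPM against 54.6 to 66.5. Whether these had a part in these values was not tested.

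*Rab5a* was at 26.3 CPM in replicate 4 of WT + TAM (20.95 to 21.9 in the other 3 mice). *Snx4* was at 15.4 CPM in replicate 4 of WT (13.6 to 13.9 in the other 3 mice). The partner gene *Appl1* was at 34.8 CPM in replicate 2 of WT + TAM (31.7 to 32.1 in the other 3 mice).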

How the results depend on the processing

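In Mtm1-/y against WT, 8 of the 41 genes were called and 0 with a log2 fold change over 1 in size as well. The count was 5 without a filter on low counts, 5 with only the 2 groups compared, and 5 to 9 with a library left out (5 without WT replicate 4). Of all tested genes, 4727 of 15533 were called in the main fit, 1536 with that fold limit as well. The number was 3939 of 30090 without a filter, 3987 of 14568 with only the 2 groups and 3693 of 15290 without WT replicate 4. DESeq2 called 10 of the 41 in this comparison, 8 in the treated comparison and 16 in the averaged contrast, and limma-voom 8, 5 and 14. Of all 15533 tested genes, DESeq2 called 5197, 3698 and 6465, limma-voom 4768, 3060 and 6115, and the main fit 4727, 3121 and 6143. *Zfyve1*, *Zfyve27*, *Rab5a* and *Snx18* were kept in all 24 alternatives other than that fold limit, *Zfyve21* in 20, *Snx9* in 15, *Zfyve26* in 12 and *Snx4* in 9. In Mtm1-/y + TAM against WT + TAM, 6 were called, 0 with a log2 fold change over 1 in size and 2 without a filter. The count was 1 to 12 with a library left out and 12 without replicate 1 of Mtm1-/y and of WT + TAM together. Of all tested genes, 3121 of 15533 were called in the main fit, 934 with that fold limit as well. The number was 2402 of 30090 without a filter and 4600 of 15359 without those 2 libraries. It was 2119 of 15935 without replicate 1 of Mtm1-/y + TAM and 4097 of 15286 without replicate 1 of Mtm1-/y. *Wdfy2* was kept in all 24 alternatives, *Stam2* in 23, *Zfyve26* in 18, *Rab11a* in 13, *Snx9* in 12 and *Snx6* in 11. The interaction and both tamoxifen comparisons gave 0 with any library left out, and WT + TAM against WT gave 1 without those 2 libraries together. Over all genes, WT + TAM against WT called 48 by edgeR, 298 by DESeq2 and 347 without those 2 libraries, and the interaction called 0, 74 and 14. Mtm1-/y + TAM against Mtm1-/y called 2, 4 and 7. The averaged genotype contrast gave 0 with a log2 fold change over 1 in size, where 1359 of all 15533 tested genes passed both limits. It gave 12 to 17 with a library left out. Leaving out a library of Mtm1-/y + TAM leaves 2 mice there. No called gene changed sign, and the cause of each lost call was not tested.

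With a replicate block 6 genes were called in Mtm1-/y against WT, 4 in Mtm1-/y + TAM against WT + TAM and 14 for the averaged contrast. Of all 15533 tested genes this fit called 4473, 2792 and 5916. It called 0 of the 41 in the tamoxifen comparisons and the interaction. Whether the replicate numbers pair the mice was not settled. *Snx33*, at 73 to 218 counts per library, rested on the fewest counts of the 41 genes.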
